A study of Mus musculus with 12 samples.

Results

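Dark zone cells in S phase (DZ S cells) are germinal center B cells that the authors' table of cells annotated as dark zone and called as S phase, outside clusters 4, 5 and 7 of the same table. There were 928 of them among 6000 cells, with 234, 347 and 347 from mouse 1, mouse 2 and mouse 3. The rule left out 22 further dark zone S-phase cells, all in cluster 5. They were compared with 1074 dark zone cells in G1 (DZ G1), 872 dark zone cells in G2/M (DZ G2/M) and 707 light zone cells in S phase (LZ S), chosen in the same way. All groups came from the draining lymph nodes of the same 3 mice, which had been immunised with NP-KLH (a hapten on a carrier protein) in an adjuvant, the Sigma Adjuvant System, and given tamoxifen. Cells were taken 5 days after tamoxifen, at day 16 of the primary response, and were sorted as live, negative for IgD and positive for the eYFP reporter, the mark that all groups carried. Cells of different mice carried different hashtag antibodies and were pooled before the droplet-based 5' assay, so every group shares its libraries with the others. For the driver of the reporter and the age of the mice, the sources used here give nothing.

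In the germinal center, B cells that were selected in the light zone move to the dark zone, divide there and acquire mutations in their antibody genes. S phase is the part of the cell cycle in which DNA is copied. Licensed origins are opened by the MCM helicase with its partners CDC45 and GINS, and the polymerases then copy the strands behind it. The genes for these proteins are largely transcribed by E2F factors at the entry into S phase, whereas genes for mitosis are held low until later through a promoter element called CHR. Mutation starts with uracil in DNA. UNG removes that uracil, and the mismatch repair proteins and polymerase eta, encoded by Polh, take part in the error-prone repair that follows.

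Phase and zone were labels made from the RNA of the same cells. The phase call was remade with the updated S and G2/M gene lists of Seurat and gave the deposited phase in 95.4% of all cells. Of the 928 DZ S cells, 797 were called S again, 105 G1 and 26 G2/M, so the S label covers a range with an edge towards each neighbour. With the first version of the lists the deposited phase came back in 96.6% of all cells and in 825 of the DZ S cells. The number of cells that change label thus depends in part on the list version. Genes on those lists chose the cells, and their values are given as description with no test. The zone labels follow a zone score with an edge near 0.5, and which genes went into that score is not stated in them. The edge was not sharp. DZ S cells had scores from 0.5 upwards and LZ S cells up to 0.507, and 44 DZ S cells lay below the highest light zone score. DZ S cells had a median zone score of 0.621 and 50 of them lay within 0.02 of their lowest score. LZ S cells had a median of 0.439, with 97 within 0.02 of their highest score. Differences between zones in zone genes are therefore described with no test as well. Other genes may also have gone into the score, so their p-values between zones are a description.

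UMI counts were summed per mouse within each group and scaled to CPM, the counts per 1000000 UMIs of the sum. The DZ S sums held 2318853, 3509509 and 3518768 UMIs in mouse 1, mouse 2 and mouse 3. DZ S cells had a median of 9388.5 UMIs per cell, against 5806 in DZ G1 cells, 9535.5 in DZ G2/M cells and 7870 in LZ S cells. Their median number of genes was 2800.5 per cell, against 2077 in DZ G1 cells, and after thinning each cell to 2000 UMIs it was 1023, against 1013. Of 7 T cell markers 4 had no UMI in DZ S cells, and the 7 summed to 6 UMIs, against 4 in DZ G1, 11 in DZ G2/M and 3 in LZ S. Of 5 NK cell markers 3 had none, and the sum was 6, against 8, 3 and 2 in the same groups. The sum of 5 myeloid markers was 47, against 9, 10 and 8, of which Lyz2, the myeloid lysozyme, gave 46 in DZ S, with 17.49 CPM in mouse 1 and at most 1.743 CPM in the other mice. Leaving out cells with 2 or more UMIs of such markers gave 3131 called genes between DZ S and DZ G1, against 3059 with all cells. Among the defining plasma cell genes, Sdc1 and Prdm1 had 2 UMIs each and Tnfrsf17 none in DZ S, whereas Jchain, Mzb1 and Xbp1, which germinal center B cells also transcribe, had 13501, 9694 and 1213.

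The marker genes of the S-phase state followed the labels. Mcm5, a subunit of the replicative helicase, had 451.3, 500.1 and 524.3 CPM in the DZ S sums of mouse 1, mouse 2 and mouse 3, against 85.47, 95.48 and 83.74 CPM in DZ G1. It had 220.7, 204.8 and 214.6 CPM in DZ G2/M and 435.2, 432 and 447.4 CPM in LZ S. All 3 DZ S values lay above every other sum. Gins2, a subunit of the GINS complex, had 132.5, 138.2 and 137.1 CPM in DZ S, against 14.45, 14.72 and 13.2 CPM in DZ G1, 44.8, 47.57 and 50.21 CPM in DZ G2/M and 117, 118.7 and 120.8 CPM in LZ S. The DZ S values of Gins2 did not overlap with those of any other group. Both genes are on the phase lists. A UMI of Gins2 was found in 65.1% of DZ S cells, against 8.29% of DZ G1 cells, and in 4.40% of plasma cells in G1, the background from a type in which the gene should be low. Median depth was 9388.5 UMIs in DZ S cells and 21961 in those plasma cells. Cells thinned to 2000 UMIs gave 21.4% for DZ S cells, against 2.53% for DZ G1 cells.

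Cxcr4, the chemokine receptor that keeps cells in the dark zone, did not set DZ S cells apart from the other dark zone phases. It had 73.9, 74.64 and 85.33 CPM in DZ S, against 82.46, 85.38 and 85.25 CPM in DZ G1, 76.74, 91.89 and 98.41 CPM in DZ G2/M and 26.18, 38.73 and 37.19 CPM in LZ S. The dark zone groups overlap and all lie above LZ S. The log2 fold change of DZ S against DZ G1 was -0.11 ± 0.10 (SE, adjusted p = 0.390), and against DZ G2/M it was -0.20 ± 0.09 (adjusted p = 0.130), by the quasi-likelihood test of edgeR, with p-values adjusted by Benjamini-Hochberg over 9105 genes.

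**Figure D1:**
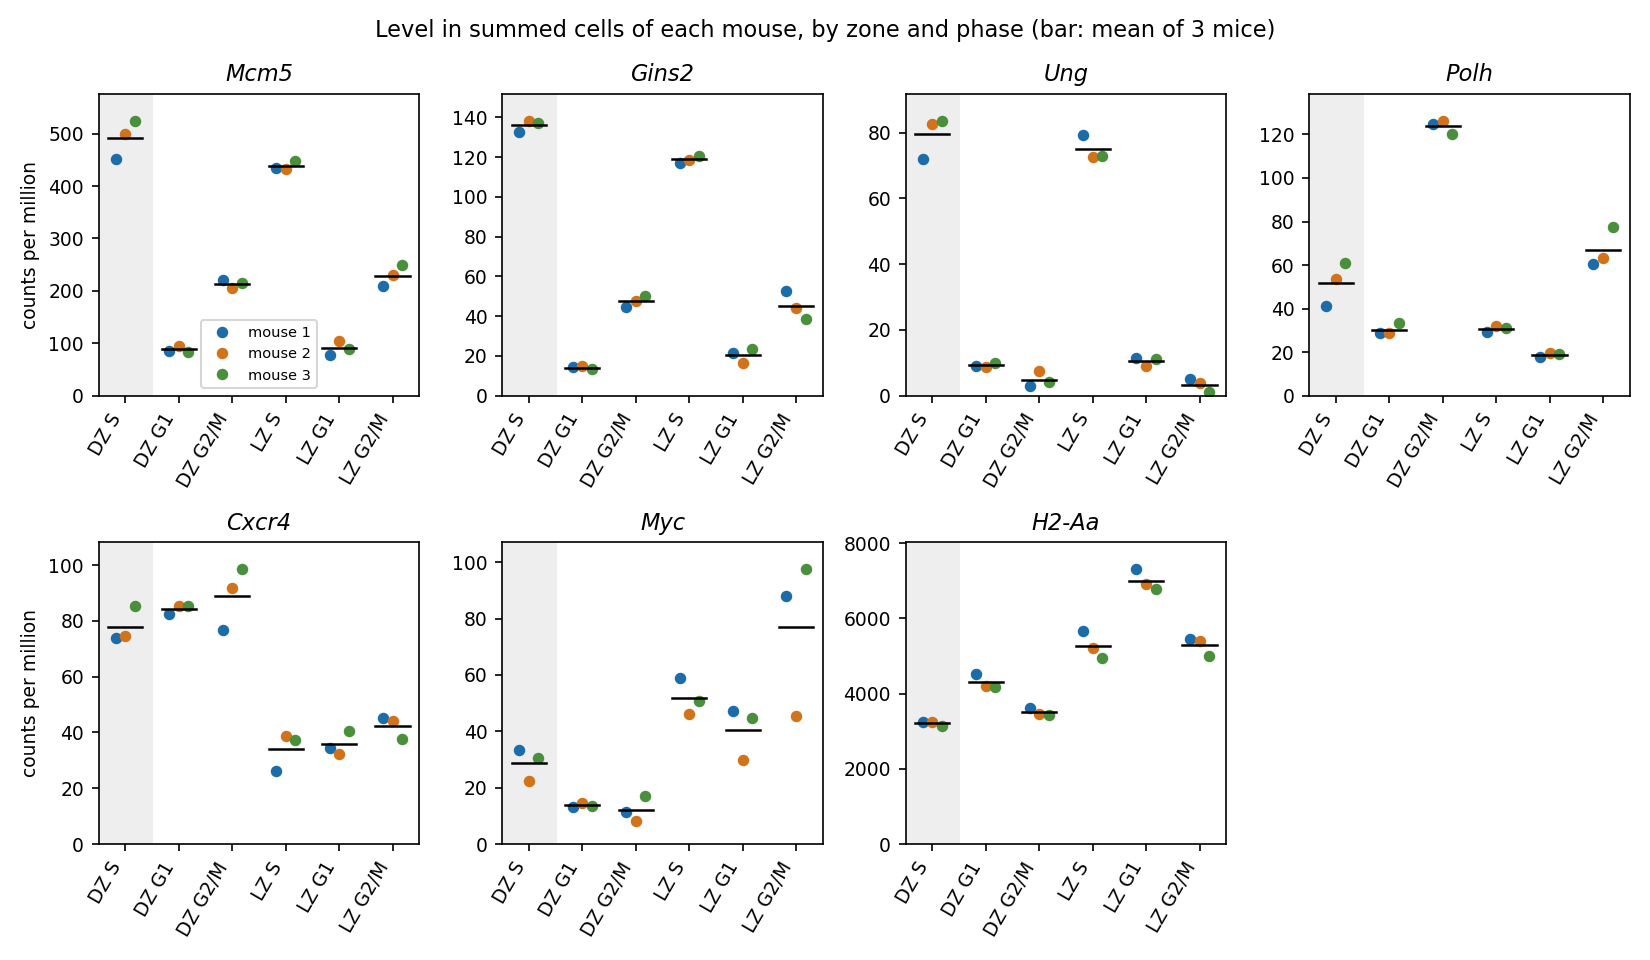
Level of 7 genes in CPM (vertical axes, from 0) in the summed cells of each mouse, by zone and phase, with a bar at the mean of 3 mice and the DZ S group shaded. Mcm5, Gins2 and Ung are high in S phase of both zones, Polh is highest in DZ G2/M, Cxcr4 follows the zone in all phases, and Myc is higher in LZ S than in DZ S.

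Against DZ G1 cells, DZ S cells carried a larger share of RNA for nearly all parts of the replication machinery and a smaller one for antigen presentation and B cell receptor signalling. Of 9105 genes tested, 1782 (19.6%) were higher and 1277 (14.0%) lower at an adjusted p under 0.05. Of these, 1690 and 1276 lay outside the phase lists. The median log2 fold change over all genes was -0.02. At least 2-fold changes were lopsided, with 587 genes higher and 103 lower, of which 508 and 103 lay outside the phase lists. A share of 33.6% of all genes passed the test in 1 direction or the other, so a list is described by how far it exceeds that share and by its median. CPM are shares of a sum, so a fall can be less RNA of a gene or more of others. DZ S cells had a median of 9388.5 UMIs per cell, against 5806 in DZ G1 cells, and levels per cell were not tested. Without mouse 3, 2066 genes were called, and without mouse 2, 2207. Without mouse 1 there were 2579.

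Origin licensing rose. Of the 9 licensing genes outside the phase lists, 8 were higher in DZ S than in DZ G1 and 0 lower, with a median log2 fold change of 0.65, beside a share of 19.6% of all genes. Mcm3, another helicase subunit, had 547.9, 560 and 528.9 CPM in DZ S, against 130, 157.7 and 129 CPM in DZ G1, a log2 change of 1.97 ± 0.06 (SE, adjusted p = 1.28e-16 by edgeR). Orc1, the origin recognition subunit that comes and goes with the cycle, had 13.56, 12.2 and 16.66 CPM in DZ S, against 1.806, 2.944 and 1.886 CPM in DZ G1, with a log2 change of 2.64 ± 0.35 (adjusted p = 3.03e-06). Neither gene's groups overlapped. Orc4 alone among the 9 was not called, at a log2 change of 0.00. Cdc6, the loader of the helicase and a phase-list gene, had 103.2, 112.7 and 105.2 CPM in DZ S, against 9.029, 5.468 and 7.167 CPM in DZ G1.

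Promoters of licensing genes are shown because 5 of 12 promoters of licensing genes outside the phase lists (41.7%) hold the letters of the E2F motif, TTTNNCGC on either strand. The share was 5.17% of all 32851 promoters of 300 bases and 9.16% of those of the genes tested outside the phase lists. Matches on the 2 strands can overlap. The sequences are from RefSeq on GRCm38.p6, run 5' to 3' towards the gene, and capitals mark each match. The 250 bases before the start are printed for Mcm5 (chr8:75109259-75109508, plus strand), Orc1 (chr4:108579204-108579453, plus strand) and Cdc6 (chr11:98907901-98908150, plus strand), of which Mcm5 and Cdc6 are phase-list genes. For Mcm3 only 30 bases after the start are printed (chr1:20820265-20820294, minus strand), since its matches lie there.
Mcm5: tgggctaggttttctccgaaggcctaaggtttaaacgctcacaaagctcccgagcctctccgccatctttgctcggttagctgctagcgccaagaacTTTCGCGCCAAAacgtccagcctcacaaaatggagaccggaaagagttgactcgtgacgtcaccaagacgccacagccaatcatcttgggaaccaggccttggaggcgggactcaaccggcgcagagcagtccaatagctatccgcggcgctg
Orc1: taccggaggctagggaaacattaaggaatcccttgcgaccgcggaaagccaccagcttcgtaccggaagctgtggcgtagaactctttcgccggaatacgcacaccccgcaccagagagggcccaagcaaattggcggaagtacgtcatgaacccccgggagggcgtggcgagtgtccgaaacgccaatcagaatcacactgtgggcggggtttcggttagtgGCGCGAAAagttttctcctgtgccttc
Cdc6: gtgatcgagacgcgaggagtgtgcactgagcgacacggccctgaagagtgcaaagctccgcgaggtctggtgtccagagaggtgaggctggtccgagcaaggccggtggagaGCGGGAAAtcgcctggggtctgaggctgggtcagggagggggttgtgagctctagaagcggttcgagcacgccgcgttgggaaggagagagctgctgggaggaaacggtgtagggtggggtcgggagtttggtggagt
Mcm3: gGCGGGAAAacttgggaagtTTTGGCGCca
In Mcm5 a match on each strand overlaps the other, beginning 153 and 149 bases before the start. The match of Orc1 begins 27 bases and that of Cdc6 138 bases before the start, and those of Mcm3 begin 19 and 38 bases after it. Of the 1690 genes outside the phase lists that were higher in DZ S than in DZ G1, 1298 had an entry, and 15.7% of their 1613 promoters held the E2F letters. Among such genes lower in DZ S, 5.81% of 1291 promoters did. A match is a description of the letters and not of a bound factor.

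Helicase activation and fork protection rose throughout. All 12 listed genes outside the phase lists were higher in DZ S than in DZ G1, beside 19.6% of all genes. The list's median log2 fold change was 1.88. Mcm10, which helps to switch on the loaded helicase, had 42.85, 38.63 and 40.33 CPM in DZ S, against 4.815, 3.785 and 5.658 CPM in DZ G1, a log2 change of 3.07 ± 0.22 (SE, adjusted p = 3.13e-10 by edgeR). Its groups lay far apart. Timeless, a fork protection factor, rose by 2.03 ± 0.14 on the log2 scale, and Dbf4, the activator of the CDC7 kinase, by 1.03 ± 0.12.

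Polymerase, clamp and Okazaki fragment genes rose in 21 of 22 cases outside the phase lists, beside 19.6% of all genes. Their median log2 fold change was 1.36. Lig1, the ligase that joins Okazaki fragments, had 320.1, 333.7 and 355.9 CPM in DZ S, against 54.17, 49.63 and 52.81 CPM in DZ G1, and rose by 2.69 ± 0.09 (SE, adjusted p = 5.51e-16 by edgeR). Rfc4, a subunit of the clamp loader, rose by 2.80 ± 0.09 on the log2 scale, with no overlap between groups. The exception was Pold4, the small subunit of polymerase delta, which had a log2 change of -0.45 ± 0.05 (adjusted p = 1.16e-07).

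Nucleotide supply rose in 20 of 22 genes outside the phase lists, beside 19.6% of all genes, with a median log2 fold change of 1.03. Dut, which destroys dUTP and so keeps uracil out of new DNA, had 820.3, 812.4 and 827.6 CPM in DZ S, against 197.4, 195.2 and 182.9 CPM in DZ G1, a log2 change of 2.10 ± 0.05 (SE, adjusted p = 1.99e-18 by edgeR). The mice of each group differed by little beside that gap. Tk1, the cytosolic thymidine kinase, rose by 2.77 ± 0.11. Samhd1, which breaks down deoxynucleotides, fell by 0.31 on the log2 scale (log2 fold change -0.31 ± 0.06, adjusted p = 0.000539). Rrm2, the regulated subunit of ribonucleotide reductase and a phase-list gene, had 451.7, 455.1 and 479.6 CPM in DZ S, against 30.7, 34.07 and 32.06 CPM in DZ G1.

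Chromatin assembly genes rose in 11 of 11 cases outside the phase lists, beside 19.6% of all genes, at a median log2 change of 1.2. Asf1b, a histone chaperone, rose by 2.65 ± 0.08 and Dnmt1, the maintenance DNA methyltransferase, by 1.53 ± 0.07. Histone genes went with them in part: 22 of the 41 tested were higher and 0 lower, beside 19.6% and 14.0% of all genes. The histone median was 0.68. Hist1h2ap had 59.03, 58.67 and 71.3 CPM in DZ S, against 4.815, 5.468 and 7.167 CPM in DZ G1, with a log2 change of 3.40 ± 0.16 (SE, adjusted p = 3.72e-13 by edgeR). Its groups did not overlap. Many histone genes are near-identical copies whose reads can be split between them, and replication-dependent histone RNA has no poly(A) tail. Single values are therefore uncertain, and so are counts and sums over the whole list.

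Homologous recombination, Fanconi and checkpoint genes were higher in 12 of 15 cases outside the phase lists and lower in none. Among all genes 19.6% were higher and 14.0% lower, and the list's median log2 fold change was 1.99. Brca1 had 52.47, 54.31 and 45.88 CPM in DZ S, against 7.825, 5.888 and 6.412 CPM in DZ G1, a log2 change of 2.94 ± 0.18 (SE, adjusted p = 2.40e-11 by edgeR). Chek1, the kinase of the replication checkpoint, rose by 2.72 ± 0.18. Both were apart from DZ G1 in all 3 mice. Fanca, Wee1 and Rmi1 were not called, with log2 fold changes of 0.18, 0.38 and 0.04.

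Regulators of S-phase entry rose in part, with 15 of 23 genes outside the phase lists higher, beside 19.6% of all genes, and none lower. Ccne1, cyclin E1, had 43.73, 49.96 and 49.68 CPM in DZ S, against 9.029, 6.309 and 6.035 CPM in DZ G1, and rose by 2.79 ± 0.18 (SE, adjusted p = 3.56e-11 by edgeR). Cdk4, the partner of the D-type cyclins, rose by 1.16 ± 0.05. Ccnd3, the D-type cyclin of dark zone cells, rose by only 0.24 ± 0.04 (adjusted p = 0.000188), with 574.1, 528.9 and 545.9 CPM in DZ S, against 451.4, 466.5 and 470.4 CPM in DZ G1. E2f4 and Cdkn1b were not called, with log2 fold changes of 0.03 and 0.50.

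The 10 largest rises outside the phase lists, by a rule that asks for a mean of 50 CPM or more in 1 of the groups, were Hist1h2ap, Pbk, Mybl2, Cenpk, Cenph, Esco2, Brca1, Fbxo5, Tcf19 and Rfc4. Mybl2, a transcription factor of proliferating cells, had 67.34, 71.74 and 68.97 CPM in DZ S, against 7.223, 6.73 and 9.053 CPM in DZ G1, a log2 change of 3.15 ± 0.20 (SE, adjusted p = 5.49e-11 by edgeR). Esco2, which acetylates cohesin during replication, had 185.4, 201 and 207.5 CPM in DZ S, against 22.87, 26.92 and 21.88 CPM in DZ G1. Cenpk and Cenph, subunits of the inner kinetochore, rose by 3.12 ± 0.17 and 3.06 ± 0.16. Fbxo5, an inhibitor of the anaphase-promoting complex, rose by 2.94 ± 0.13. None of these groups overlapped, but the rule picked large called changes alike in 3 of 3 mice, so this is a description.

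Growth genes rose in part. Myc, the growth regulator induced at selection, had 33.23, 22.36 and 30.39 CPM in DZ S, against 13.24, 14.72 and 13.58 CPM in DZ G1, a log2 change of 1.02 ± 0.19 (SE, adjusted p = 0.000212 by edgeR). The groups did not overlap, although the DZ S mice differed among themselves. With 39 cells in every sum the direction turned, to a log2 change of -0.22 (adjusted p = 0.862). Of 19 ribosome biogenesis genes outside the phase lists, 9 were higher and 0 lower, with a median of 0.52. Of 13 glycolysis genes, 9 were higher and 0 lower, with a median of 0.34. The shares of all genes were 19.6% higher and 14.0% lower.

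What fell as a share of RNA was the B cell side. Of 12 genes of the B cell receptor complex and its signalling, 10 were lower in DZ S than in DZ G1 and 0 higher, with a median log2 fold change of -0.30, beside 14.0% of all genes lower. Cd79b, a signalling chain of the receptor, had 2179, 2080 and 2153 CPM in DZ S, against 3249, 3089 and 3241 CPM in DZ G1, with a log2 change of -0.58 ± 0.04 (SE, adjusted p = 8.04e-10 by edgeR). Syk, the kinase bound by that chain, had a log2 change of -0.52 ± 0.06. Of 12 genes of MHC class II presentation, 10 were lower, with a median of -0.43. H2-Aa, the alpha chain of I-A, had 3237, 3245 and 3153 CPM in DZ S, against 4534, 4215 and 4188 CPM in DZ G1, with a log2 change of -0.42 ± 0.03 (adjusted p = 1.39e-10). The groups of Cd79b and H2-Aa did not overlap. Ifi30, a lysosomal thiol reductase of antigen processing, went the other way and rose by 0.33 ± 0.07.

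The largest single falls were modest in size. By the same rule they were Pxdc1, Cytip, Mylip, Il4i1, Neurl3, Trim12a, Pbxip1, Tnfaip8l2, Rnase6 and Slfn2, with log2 fold changes between -1.11 and -0.89. Cytip, a regulator of cell adhesion, had 40.23, 39.5 and 37.7 CPM in DZ S, against 81.86, 84.96 and 80.72 CPM in DZ G1, a log2 change of -1.08 ± 0.11 (SE, adjusted p = 7.23e-08 by edgeR). The DZ S values were below every DZ G1 value, which is a description, since the rule picked large falls.

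The repair genes of the mutation pathway differed from each other in their course over the phases. Of 8 genes of mutation and error-prone repair outside the phase lists, 4 were higher and 1 lower in DZ S than in DZ G1, and the median over the list was 0.53 on the log2 scale. Among all genes 19.6% were higher and 14.0% lower in that comparison. Against DZ G2/M, 3 of the 8 were higher and 1 lower, with a median of 0.21, beside 12.6% of all genes higher and 11.4% lower. Polh was the lower one. It had 41.1, 53.44 and 61.08 CPM in DZ S, against 28.89, 28.6 and 33.19 CPM in DZ G1 and 124.9, 126.2 and 120.2 CPM in DZ G2/M. It rose against DZ G1 by 0.79 ± 0.11 (SE, adjusted p = 1.10e-05 by edgeR) and had a log2 change of -1.24 ± 0.09 against DZ G2/M (adjusted p = 9.20e-10). The 3 that were higher than in DZ G2/M were Msh6, a mismatch recognition protein, by 0.78 ± 0.11, Mad2l2, a partner of polymerase zeta, by 0.76 ± 0.10, and Rev3l, the catalytic subunit of that polymerase, by 0.31 ± 0.09. Rev3l lost the call without mouse 2 (adjusted p = 0.0545) and without mouse 3 (adjusted p = 0.128), and had -0.13 with 39 cells in every sum. Msh6 also rose by 0.87 ± 0.11 against DZ G1. Ung, a phase-list gene given as description, had 72.15, 82.78 and 83.58 CPM in DZ S, against 9.029, 8.833 and 9.807 CPM in DZ G1 and 2.86, 7.387 and 4.017 CPM in DZ G2/M.

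The dark zone programme was split. Of its 10 genes, 3 were higher and 4 lower in DZ S than in DZ G1, with a median log2 fold change of 0.01, beside 19.6% of all genes higher and 14.0% lower. The higher ones were Polh and Ccnd3, given above, and Gcsam, a germinal center signalling protein, by 0.24 ± 0.08 on the log2 scale (SE, adjusted p = 0.0211 by edgeR). Gcsam lost the call without mouse 2 (adjusted p = 0.179) and without mouse 3 (adjusted p = 0.0658), and had -0.10 with 39 cells in every sum. Foxo1, the transcription factor needed for the dark zone state, had 89.64, 88.87 and 97.61 CPM in DZ S, against 125.8, 115.7 and 123.3 CPM in DZ G1, a log2 change of -0.40 ± 0.09 (SE, adjusted p = 0.00171 by edgeR). Foxp1 and Bach2, further transcription factors of B cells, had log2 fold changes of -0.49 ± 0.08 and -0.33 ± 0.07. For these 3 factors the DZ S mice all lay below the DZ G1 mice.

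Against DZ G2/M cells, DZ S cells had more RNA for licensing and ribosome biogenesis and less for mitosis and, as captured here, histones. Of 9105 genes, 1143 (12.6%) were higher and 1041 (11.4%) lower, 24.0% in all, and the median log2 fold change over all genes was 0.01. Outside the phase lists the counts were 1106 and 987. Without mouse 3 the count was 1251 and without mouse 2 it was 1293. Of 9 licensing genes outside the phase lists, 6 were higher and 0 lower, with a median of 0.49. Mcm3 had 547.9, 560 and 528.9 CPM in DZ S, against 210.7, 211 and 194.5 CPM in DZ G2/M, and the log2 fold change was 1.41 ± 0.06 (SE, adjusted p = 2.18e-14 by edgeR). Ccne1 rose by 1.44 ± 0.14, E2f1 by 1.84 ± 0.20 and Chek1 by 1.42 ± 0.14.

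Single replication genes were not called between DZ S and DZ G2/M. Tk1 had 187.6, 194.6 and 201.3 CPM in DZ S, against 181.1, 196.5 and 194.2 CPM in DZ G2/M, with a log2 change of 0.03 ± 0.09 (SE, adjusted p = 0.860 by edgeR), and the groups overlapped. Asf1b had a log2 change of -0.10 ± 0.06 (adjusted p = 0.249). Of 15 recombination and checkpoint genes outside the phase lists, 3 were higher and 1 lower, with a median of 0.18, which is near the 12.6% higher and 11.4% lower of all genes. Dbf4 was lower in DZ S, with a log2 change of -1.19 ± 0.10.

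**Figure D2:**
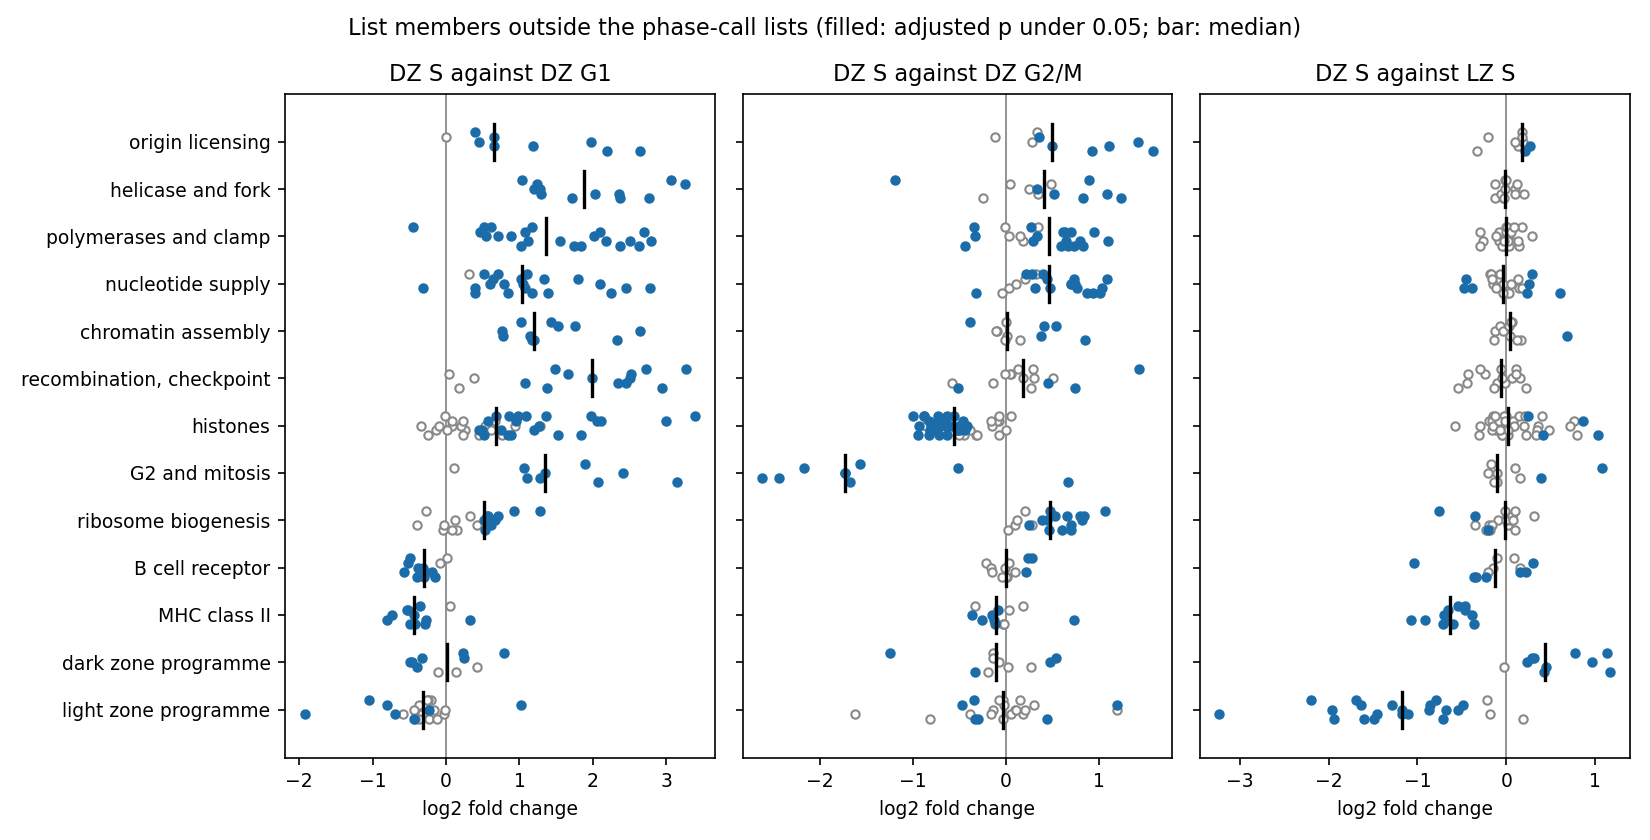
Log2 fold change of each list member outside the phase-call lists (horizontal axes) for DZ S over DZ G1, DZ G2/M and LZ S, with filled points at an adjusted p under 0.05 and a bar at each list's median. Replication lists lie to the right of 0 against DZ G1, histone and mitosis lists lie to the left of 0 against DZ G2/M with medians of -0.56 and -1.73, and replication lists sit around 0 against LZ S.

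Mitotic genes were already above DZ G1 in DZ S and far below DZ G2/M. Of 9 such genes outside the phase lists, 8 were higher in DZ S than in DZ G1, and 8 were lower in DZ S than in DZ G2/M with a median log2 fold change of -1.73. The shares of all genes were 19.6% higher than in DZ G1 and 11.4% lower than in DZ G2/M. Ccnb1, cyclin B1, had 48.1, 48.79 and 39.74 CPM in DZ S, against 226.4, 239.3 and 272.9 CPM in DZ G2/M, a log2 change of -2.44 ± 0.10 (SE, adjusted p = 2.58e-14 by edgeR). It had 19.26, 18.51 and 24.9 CPM in DZ G1, so DZ S lay between the other phases without overlap. Plk1, a mitotic kinase, had 41.98, 52.28 and 46.47 CPM in DZ S, against 280.7, 290.4 and 297.3 CPM in DZ G2/M, with a log2 change of -2.62 ± 0.09 (adjusted p = 1.83e-15). The member that went the other way was Mybl2, which was higher in DZ S than in DZ G2/M by 0.67 ± 0.14 (adjusted p = 0.00125), and without mouse 2 by 0.57 (adjusted p = 0.0639).

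The other largest falls against DZ G2/M were those of Pif1, Aspm, Cdkn3, Parpbp, Kif20a, Tuba1c, Sgol2a and Kif22, between -3.27 and -1.94 on the log2 scale. Pif1 is a DNA helicase, Aspm a spindle pole protein, and Kif20a and Kif22 mitotic kinesins. The 10 largest rises outside the phase lists were those of Srm, Chek1, Mcm3, Tubgcp2, Ubtf, Arl6ip6, Pycrl, Cdt1, Pole2 and Timeless, between 1.08 and 1.44. Srm, spermidine synthase, had 66.9, 58.67 and 64.29 CPM in DZ S, against 18.59, 27.77 and 22.09 CPM in DZ G2/M, a log2 change of 1.44 ± 0.13 (SE, adjusted p = 2.16e-08 by edgeR). Ubtf, a factor of ribosomal RNA transcription, had 141.2, 139.4 and 137.3 CPM in DZ S, against 60.53, 66.48 and 51.36 CPM in DZ G2/M. Neither overlapped between groups, which is a description, since the rule picked large rises. Ribosome biogenesis genes outside the phase lists were higher in 14 of 19 cases and lower in 0, with a median of 0.47. Among all genes 12.6% were higher. Myc was higher in DZ S than in DZ G2/M by 1.19 ± 0.18 on the log2 scale.

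Promoters of genes lower in DZ S than in DZ G2/M are shown for the CHR letters, TTTGAA on either strand. Among genes outside the phase lists and at least 2-fold lower in DZ S, 39.7% of 131 promoters held them, against 11.9% of the 8621 promoters of the genes tested outside those lists and 17.9% of all promoters. Among such genes at least 2-fold higher in DZ S than in DZ G2/M, 6.15% of 130 promoters did. The CHR letters were not limited to the falls. Genes at least 2-fold higher in DZ S than in DZ G1, outside the phase lists, held them in 21.0% of 467 promoters. The E2F letters were in 19.1% of those same promoters. The 250 bases before the start, from RefSeq on GRCm38.p6, are printed for Kif22 (chr7:127042421-127042670, minus strand) and Cdkn3, a phosphatase of cyclin-dependent kinases (chr14:46760291-46760540, plus strand), both among the largest falls above, with the CHR letters in capitals.
Kif22: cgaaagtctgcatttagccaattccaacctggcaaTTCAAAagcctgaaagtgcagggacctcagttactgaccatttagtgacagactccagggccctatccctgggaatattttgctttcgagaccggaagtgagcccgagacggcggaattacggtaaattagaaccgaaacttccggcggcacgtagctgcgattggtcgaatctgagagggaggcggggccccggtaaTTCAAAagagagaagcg
Cdkn3: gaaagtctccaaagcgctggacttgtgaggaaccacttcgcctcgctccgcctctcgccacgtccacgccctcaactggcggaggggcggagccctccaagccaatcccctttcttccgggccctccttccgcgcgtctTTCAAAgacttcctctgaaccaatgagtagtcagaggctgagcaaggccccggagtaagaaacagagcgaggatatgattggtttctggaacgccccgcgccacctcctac
The matches begin 215 and 17 bases before the start in Kif22 and 111 bases before it in Cdkn3. CCAAT, on either strand, occurs 2 times in the stretch of Kif22 and 3 times in that of Cdkn3. It was in 55.0% of the promoters of the genes at least 2-fold lower in DZ S outside the phase lists, against 38.5% of those of the genes tested outside them.

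Histone genes were lower in DZ S than in DZ G2/M in 26 of 41 cases and higher in 0, with a median log2 fold change of -0.56. Among all genes 11.4% were lower and 12.6% higher. Replication-dependent histone RNA has no poly(A) tail, and how far the captured UMIs follow its level was not tested. Hist1h2ae had 735.1, 607.9 and 662.5 CPM in DZ S, against 1466, 1250 and 1275 CPM in DZ G2/M and 167.3, 169.5 and 170.9 CPM in DZ G1. Its log2 fold change was -0.99 ± 0.07 against DZ G2/M (SE, adjusted p = 1.08e-10 by edgeR) and 1.97 ± 0.08 against DZ G1 (adjusted p = 5.45e-15). Its DZ S values lay between those of the other phases without overlap.

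DZ S cells were spread over several clusters, which they shared with cells of other phases. Clusters 0, 1 and 2 of the authors' table held 127, 249 and 533 of them, on average 13.9% ± 2.53, 27.0% ± 1.08 and 57.0% ± 3.41 of the cells of a mouse (SD, n = 3), and cluster 3 held 19. Cluster 0 also held 879 DZ G1 cells and cluster 1 held 515 DZ G2/M cells, whereas cluster 2 held 21 and 3 of these. The clusters were made from the same RNA, so their differences are a description with no test. The remade S score had a median of 0.00 in cluster 0, 0.409 in cluster 1 and 0.234 in cluster 2. The remade G2/M score had medians of -0.239, 0.197 and -0.128 in the same order. Median depth was 6824, 12260 and 9380 UMIs per cell.

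The S-phase cells of cluster 1 held most of the captured histone UMIs. The 64 histone genes together had 1940 ± 167 CPM in cluster 0, 7540 ± 242 CPM in cluster 1 and 1580 ± 78.7 CPM in cluster 2 (SD, n = 3 mice), and 70.3% of their UMIs in these clusters were in cluster 1. Of the 62 with a UMI, 59 had their highest mean there. Hist1h1b, a linker histone gene, averaged 409 ± 76.1 CPM in cluster 0, 2196 ± 99.7 CPM in cluster 1 and 362 ± 31.5 CPM in cluster 2 (SD, n = 3 mice). Hist1h2ap averaged 5.20 ± 6.10, 171 ± 26.8 and 10.5 ± 2.09 CPM in the same clusters. Ccna2, the cyclin of S phase and G2, averaged 27.3 ± 3.03, 271 ± 15.3 and 59.7 ± 15.4 CPM. Cluster 1 therefore combined the highest S score with the highest G2/M score and the most histone UMIs.

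The licensing genes had another order. The 9 outside the phase lists together had 789 ± 40.1 CPM in cluster 0, 1110 ± 32.9 CPM in cluster 1 and 1110 ± 9.33 CPM in cluster 2 (SD, n = 3 mice), so clusters 1 and 2 were level. Mcm3 averaged 362 ± 23.7 CPM in cluster 0, 569 ± 24.3 CPM in cluster 1 and 565 ± 7.14 CPM in cluster 2 (SD, n = 3 mice). Ung, a phase-list gene, averaged 37.0 ± 9.55, 70.4 ± 7.55 and 92.7 ± 6.44 CPM, with its highest values in cluster 2 in each mouse. Myc averaged 33.5 ± 5.44, 17.9 ± 3.41 and 35.1 ± 11.2 CPM, lowest in cluster 1. Polh averaged 42.3 ± 9.59, 71.3 ± 14.2 and 41.9 ± 12.4 CPM, highest in cluster 1 in each mouse. Cd83, a light zone surface protein, averaged 184 ± 39.2, 76.1 ± 9.13 and 107 ± 6.25 CPM, highest in cluster 0, whose cells had a median zone score of 0.593, against 0.633 in cluster 2.

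**Figure D3:**
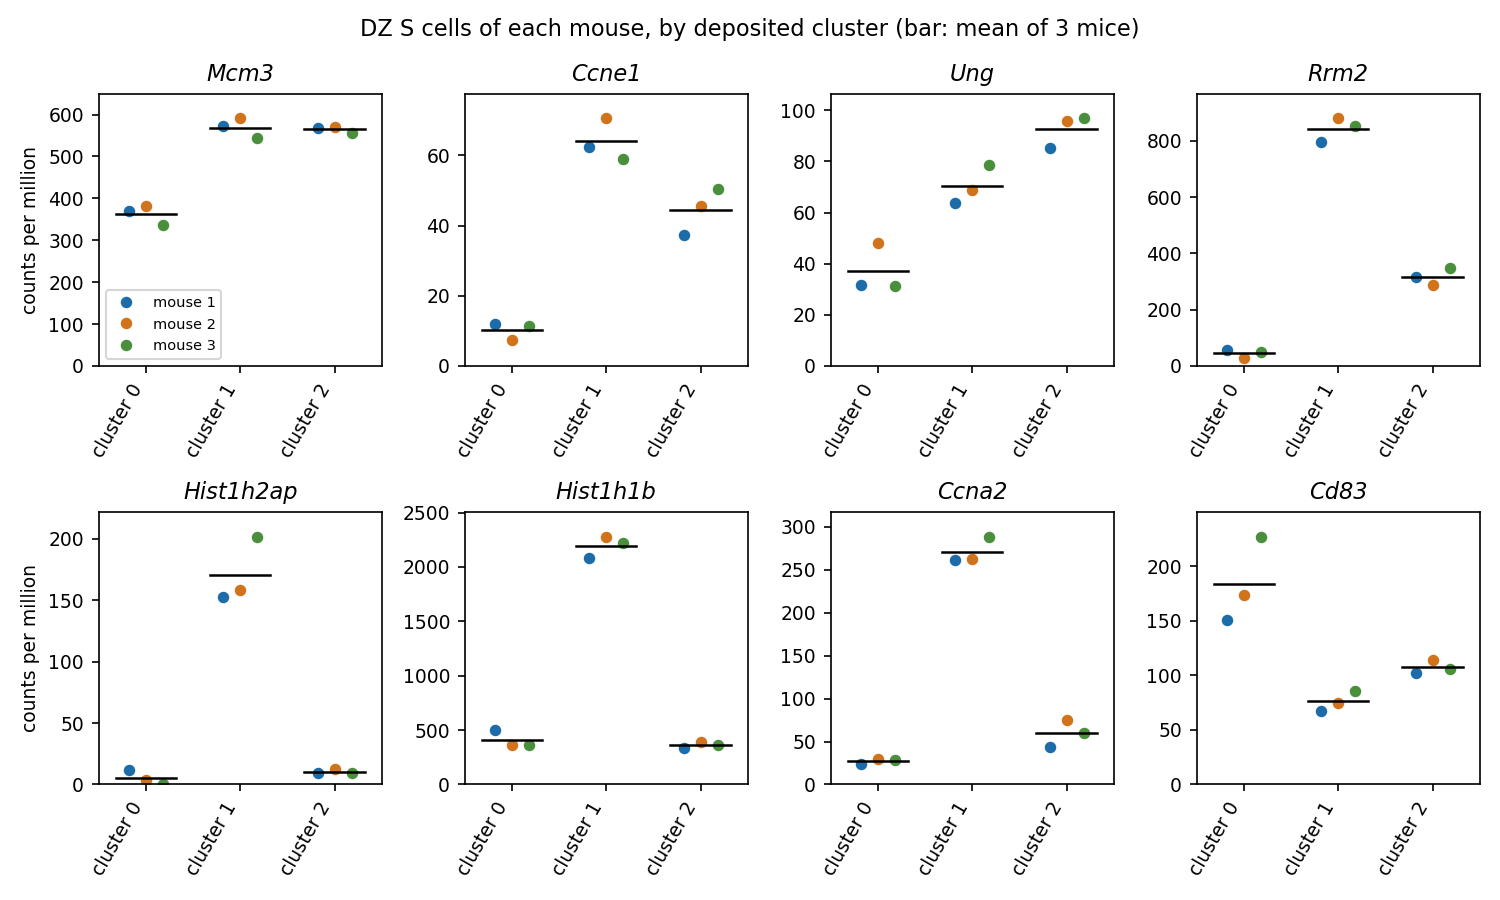
Level of 8 genes in CPM (vertical axes, from 0) in DZ S cells of clusters 0, 1 and 2, with 1 point per mouse and a bar at the mean. Histone genes and Ccna2 are highest in cluster 1, Ung is highest in cluster 2, and Cd83 is highest in cluster 0.

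Against LZ S cells, the replication genes of DZ S cells differed about as often as all genes did. Of 9105 genes, 706 (7.75%) were higher and 507 (5.57%) lower in DZ S, 13.3% in all, with a median log2 fold change of 0.02. Outside the phase lists, 689 were higher and 505 lower. Without mouse 3 the count was 648 and without mouse 2 it was 658. Of 76 genes of the licensing, helicase, polymerase, nucleotide supply and chromatin assembly lists outside the phase lists, 10 were called (13.2%), with a median of 0.01 and log2 fold changes between -0.48 and 0.68. They included 2 of 9 licensing genes, Orc6, an origin recognition subunit, at 0.21 ± 0.07, and Cdt1, a loader of the helicase, at 0.27 ± 0.09, both of which lost the call when any 1 mouse was left out, with adjusted p between 0.0717 and 0.246. None of 12 helicase genes, none of 22 polymerase genes and none of 15 recombination and checkpoint genes outside the phase lists was called, with medians of -0.01, 0.00 and -0.06. By edgeR, Mcm3 had a log2 change of 0.10 ± 0.05 (SE, adjusted p = 0.246), with 547.9, 560 and 528.9 CPM in DZ S, against 495.7, 518.9 and 509.2 CPM in LZ S. Lig1 had -0.01 ± 0.07 (adjusted p = 0.987). These differences are small beside those against DZ G1 of the same genes, 1.97 and 2.69, but a p above the threshold does not show that the zones are alike.

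Several replication genes did differ between the zones, given as a description since the genes of the zone score are not stated. Asf1a, the other ASF1 chaperone, had 193.7, 218.1 and 225.9 CPM in DZ S, against 126, 136.1 and 136.1 CPM in LZ S, a log2 change of 0.68 ± 0.08 (SE, adjusted p = 5.72e-06 by edgeR). It was higher in DZ S in 3 of 3 mice and without overlap. Tk1 went the other way, with 187.6, 194.6 and 201.3 CPM in DZ S, against 270.8, 239.9 and 258 CPM in LZ S, a log2 change of -0.39 ± 0.09 (adjusted p = 0.00324), and of -0.41 without mouse 3 (adjusted p = 0.0545). Shmt1, a folate enzyme, had -0.48 ± 0.14 (adjusted p = 0.0270), and lost the call when any 1 mouse was left out, with adjusted p between 0.103 and 0.134. Of 22 nucleotide supply genes outside the phase lists, 4 were higher and 3 lower, beside 7.75% of all genes higher and 5.57% lower. This list was thus called more often than all genes.

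Repair genes differed for a few members. Msh3, a mismatch recognition protein for larger loops, was higher in DZ S than in LZ S by 0.61 ± 0.10 (SE, adjusted p = 0.000154 by edgeR). Neil1, a base excision glycosylase, had 446.9, 472.3 and 452.4 CPM in DZ S, against 277.3, 252.3 and 248.1 CPM in LZ S, a log2 change of 0.83 ± 0.06 (adjusted p = 2.49e-09). It was higher in every mouse. Whether Msh3 and Neil1 went into the zone score is not known, so their p-values between zones are a description. Neil1 was lower in DZ S than in DZ G1, at -0.28 ± 0.06 (adjusted p = 0.000468).

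Of 9 mitotic genes outside the phase lists, 2 were higher in DZ S than in LZ S and 0 lower, with a median log2 fold change of -0.10, beside 7.75% of all genes higher. Cdc25b, a phosphatase that activates CDK1, differed by 1.08 ± 0.09 on the log2 scale (SE, adjusted p = 1.27e-08 by edgeR), and Ccnb1 by 0.40 ± 0.12 (adjusted p = 0.0381). By its column name the zone score was made without cell cycle genes. Its genes are not listed, so both p-values are still a description. Ccnb1 lost the call without mouse 1 (adjusted p = 0.087) and without mouse 2 (adjusted p = 0.461), and had -0.33 with 39 cells in every sum. Ccnb2, cyclin B2 and a phase-list gene, had 153.5, 156 and 167.4 CPM in DZ S, against 55.63, 71.51 and 58.28 CPM in LZ S, and 121.6, 135.4 and 119.9 CPM in DZ G1. Cenpa, the centromeric histone and also a phase-list gene, had 115.4, 133.9 and 119.5 CPM in DZ S, against 69.54, 74.98 and 62.88 CPM in LZ S. Both were higher in DZ S in all 3 mice. Ccna2 had 118.1, 132.2 and 132.4 CPM in DZ S, against 125.2, 131.1 and 151.8 CPM in LZ S, so these groups overlapped.

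The zone programmes are described without a test, because genes of this kind made the zone label. Gcsam had 348.5, 383.1 and 386.3 CPM in DZ S, against 180, 168.8 and 164.1 CPM in LZ S. Foxp1 had 137.7, 129.2 and 139.7 CPM in DZ S, against 67.9, 75.48 and 64.03 CPM in LZ S. Polh had 41.1, 53.44 and 61.08 CPM in DZ S, against 29.45, 31.78 and 31.06 CPM in LZ S. In each of these the DZ S mice lay above the LZ S mice.

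On the light zone side, Cd83 had 94.01, 106.9 and 113.1 CPM in DZ S, against 481.8, 371.9 and 380 CPM in LZ S. Il4i1, an amino acid oxidase, had 35.42, 39.5 and 37.99 CPM in DZ S, against 202.9, 170.3 and 155.7 CPM in LZ S. Nfkbia, an inhibitor and target of NF-kappa B, had 68.65, 74.93 and 77.73 CPM in DZ S, against 288, 193.7 and 247.3 CPM in LZ S. Every DZ S value of these genes was below every LZ S value. Myc had 33.23, 22.36 and 30.39 CPM in DZ S, against 58.9, 46.18 and 50.61 CPM in LZ S, and H2-Aa had 3237, 3245 and 3153 CPM in DZ S, against 5670, 5226 and 4942 CPM in LZ S. The 12 MHC class II genes had log2 fold changes between -1.07 (Ifi30) and -0.36 (Ctss), with a median of -0.63, given as a description.

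The rule for named genes took the largest changes among genes past the threshold between DZ S and LZ S, so their sizes are a description and support nothing on the zones. The largest positive log2 changes were those of Myl4, Lrrc49, Rgcc, Arl5c, Pafah1b3, Mprip, Eif2ak3, Cxcr4, Gcsam and Hmces, between 1.09 and 1.73. Hmces, a protein that shields abasic sites in single-stranded DNA, had 745.6, 802.8 and 800.7 CPM in DZ S, against 407.4, 382.9 and 321.7 CPM in LZ S. Rgcc, a cell cycle regulator, had 178.4, 193.4 and 199.6 CPM in DZ S, against 53.17, 69.03 and 53.68 CPM in LZ S. The largest negative ones were those of Il4i1, Cd83, Nfkbia, Fcer2a, Egr1, Lmo2, Samsn1, Relb, Ppap2a and Dock10, between -2.19 and -1.19. Jchain, the joining chain of secreted IgM and IgA, had 1490, 1472 and 1468 CPM in DZ S, against 946.5, 1015 and 854.6 CPM in LZ S, and had 1601, 1444 and 1388 CPM in DZ G1. Its DZ S values overlapped with DZ G1 and lay above all LZ S values.

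**Figure D4:**
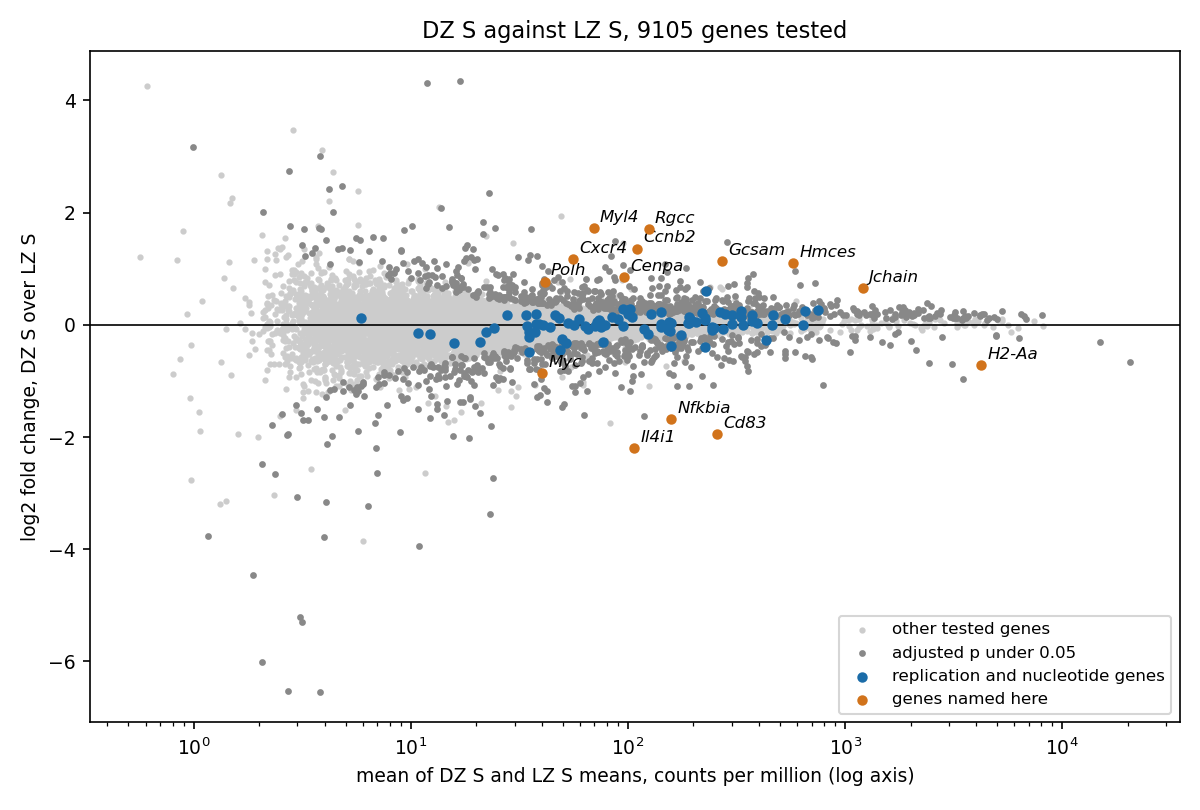
Log2 fold change of DZ S over LZ S (vertical axis) against the mean level of the groups in CPM (horizontal log axis) for 9105 genes. The 87 replication and nucleotide genes, in blue, include phase-list genes and are drawn as a description. Of these, 86 lie within 0.5 of 0 on the log2 scale, while zone genes such as Cd83 and Il4i1 lie at -1.94 and -2.19.

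Few genes were called as changing by a different amount between G1 and S phase in the dark zone than in the light zone. A gene that was not called is not shown to change alike. The count depended on the setting, from 3 with 39 cells in every sum to 132 with no filter on low counts. The difference between the change in the dark zone and that in the light zone was called for 54 of 9105 genes (0.593%), 44 of them higher (0.483%) and 10 lower (0.110%) in the dark zone, or 29 higher and 12 lower with DESeq2's size factors. Stmn1, a microtubule-destabilising protein, had 1302, 1411 and 1417 CPM in DZ S and 377.4, 403.4 and 415.7 CPM in DZ G1, against 1252, 1263 and 1301 CPM in LZ S and 205.8, 219.8 and 209.6 CPM in LZ G1. Its rise was smaller in the dark zone, with a difference of -0.80 ± 0.08 on the log2 scale (SE, adjusted p = 3.41e-06 by edgeR), where the levels in S phase were close and those in G1 were not. Marcksl1, an actin-binding protein, had 247.1, 280.6 and 277.9 CPM in DZ S and 135.4, 134.2 and 134.7 CPM in DZ G1, against 394.3, 399.3 and 398 CPM in LZ S and 348.3, 304.1 and 311.8 CPM in LZ G1. Its rise was larger in the dark zone, by 0.69 ± 0.10 (adjusted p = 0.00186), and without mouse 2 by 0.69 (adjusted p = 0.107). Of the 44 higher genes, 34 encode ribosomal proteins, a grouping chosen after the values were seen, with differences of 0.15 to 0.34. Without mouse 2 the count of called genes was 6, and without mouse 1 it was 18.

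**Figure D5:**
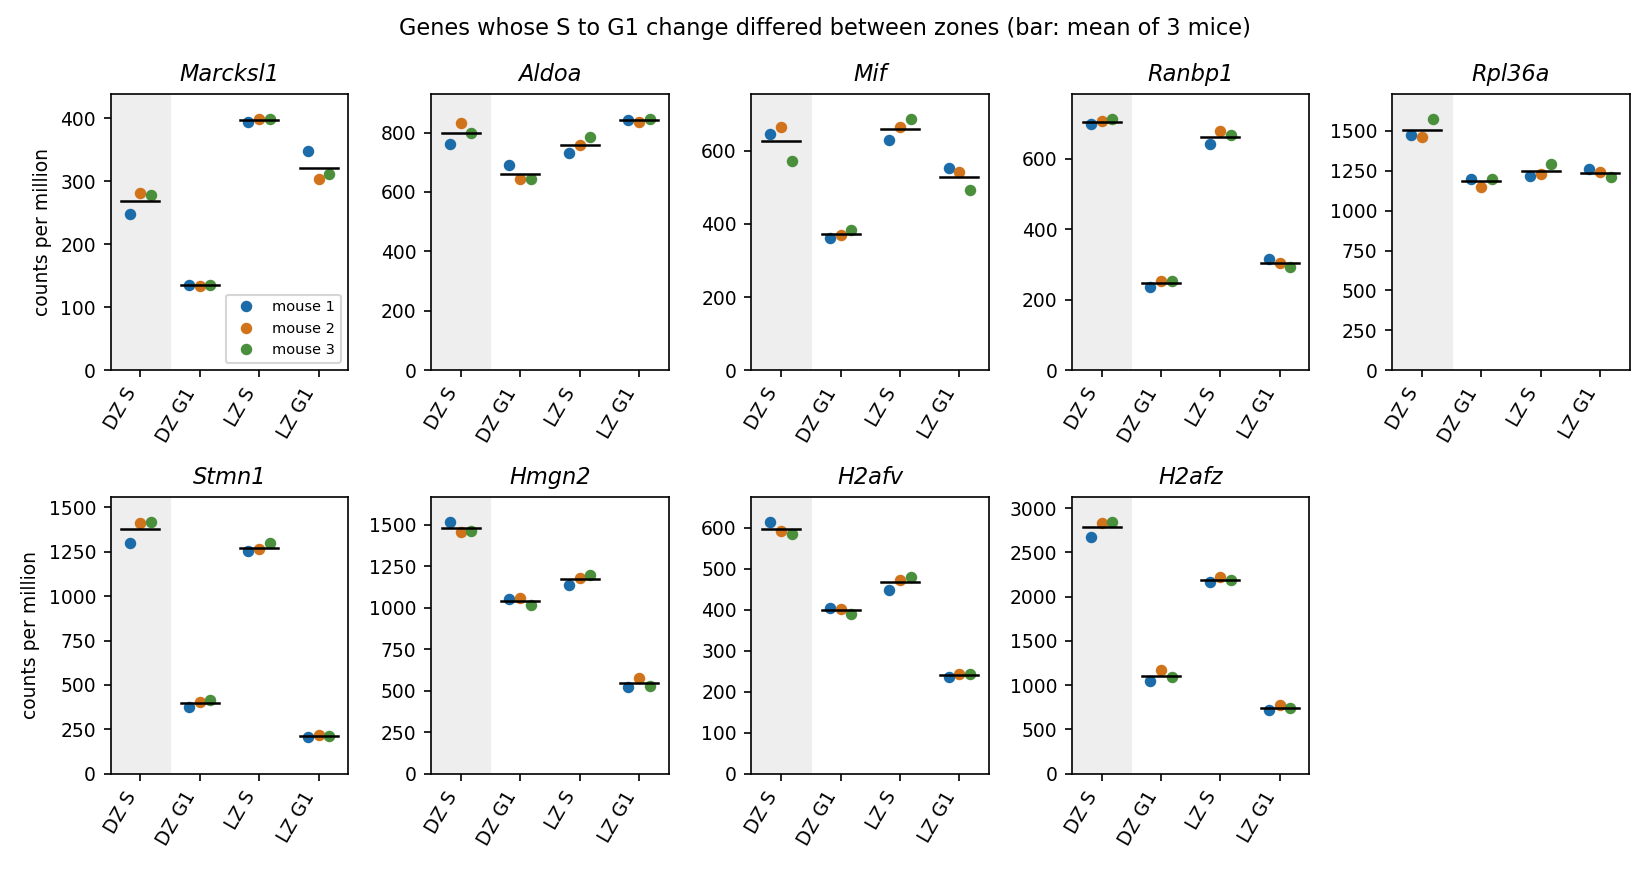
Levels in CPM (vertical axes, from 0) of the 9 named genes whose change between G1 and S differed between zones, with 1 point per mouse and a bar at the mean, and DZ S shaded. Marcksl1 rises in S phase more in the dark zone, and Stmn1 and Hmgn2 start from a higher level in DZ G1 than in LZ G1.

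The share of cells in S phase was close in the zones by its means. S-phase cells made up 32.3% ± 1.25 of dark zone cells and 34.2% ± 2.11 of light zone cells (SD, n = 3 mice). The dark zone share was lower in 3 of 3 mice, by 1.83 percentage points on average, with p = 0.25 when signs were flipped in an exact, two-sided permutation test, the smallest value that 3 pairs allow. G2/M cells made up 30.3% ± 0.709 of dark zone cells and 9.52% ± 2.11 of light zone cells, so for each DZ S cell there were more G2/M cells in the same zone than for each LZ S cell.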

How the data were processed

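Per the labels, draining lymph node cells of 3 mice were tagged with hashtag antibodies, pooled and sequenced with a 5' droplet assay in 12 libraries. The authors deposited raw UMI counts for 6000 cells and 13886 genes, with a table giving each cell its mouse, cluster, phase, zone label and zone score. The zone scores are the authors' deposited values, made without cell cycle genes by their column names. Per the submitters' processing notes, Cell Ranger and Seurat were used with mm10 and GRCm38. How doublets were treated is not given in the sources used here, and none were called here. No library could be tied to a mouse, so the mouse number in the cell table was the replicate. It is not stated whether mice were littermates or handled apart.

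Counts were summed per mouse for dark and light zone cells in G1, S and G2/M, giving 18 sums of 388051 to 3591319 UMIs. edgeR 4.0.16 (R 4.3.3) fitted all sums with TMM scaling, its default filter (9105 genes), the mouse as a block and quasi-likelihood tests, p-values being adjusted by Benjamini-Hochberg and called under 0.05. The same mice gave every group, which pairs the sums, and sums of the same mouse deviated together (median r = 0.452 over 45 pairs). Deviations were taken from group means, so the median of -0.234 for different mice largely follows from that value and is no separate evidence. On simulated data for DZ S against DZ G1, 46 of 50 genes changed 2-fold were recovered and 3 unchanged genes were called. Phase was remade with Seurat 5.3.0. Members and gene lists were chosen with earlier results of these data known. Groups that did not overlap in genes named for large changes are a description. Named genes were the 10 largest called changes in each direction outside the phase lists, alike in 3 of 3 mice and with a mean of 50 CPM or more in 1 group, without immunoglobulin and predicted genes, and 5 in each direction for the difference between zones, where 4 lower genes qualified, besides list members. Promoters came from RefSeq for GRCm38.p6, and 6880 of the 9105 genes had an entry. Alternatives changed the scaling, test, filter, block, clusters, cell numbers, depth, phase call, samples and fold threshold.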

Additional observations from a re-analysis of the deposited data

Results flagged for a closer look

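Of the 54 genes called for the difference between zones, 9 passed the rule for named genes. Their change between G1 and S phase differed between the zones in a test of that difference (edgeR, Benjamini-Hochberg adjustment over 9105 genes, 3 mice). The change was larger in the dark zone for Marcksl1, an actin-binding protein (0.69 on the log2 scale), Aldoa, a glycolytic aldolase (0.43), Mif, a cytokine (0.42), Ranbp1, a partner of the RAN transport cycle (0.38), and Rpl36a, a ribosomal protein (0.34). It was smaller in the dark zone for Stmn1 (-0.80), the chromatin protein gene Hmgn2 (-0.61) and the histone variant genes H2afv (-0.37) and H2afz (-0.22). Of these 9 genes, Stmn1 and Hmgn2 kept the call under every alternative tried. The other 7 lost it when at least 1 mouse was left out. Aldoa without mouse 2 had 0.38 (adjusted p = 0.161), Mif without mouse 1 had 0.32 (adjusted p = 0.242), Ranbp1 without mouse 1 had 0.31 (adjusted p = 0.211) and Rpl36a without mouse 2 had 0.32 (adjusted p = 0.153). H2afv without mouse 3 had -0.36 (adjusted p = 0.155), and H2afz without mouse 1 had -0.21 (adjusted p = 0.237).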

How the results depend on the processing

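Of the genes named with a fold change, 38 of 51 called between DZ S and DZ G1, 20 of 30 between DZ S and DZ G2/M, 16 of 29 between DZ S and LZ S and 2 of 9 for the difference between zones kept their call and direction under every alternative. With 39 cells in every sum the counts of called genes were 692, 318, 117 and 3 in these comparisons, where fewer cells entered, and the log2 change reversed to -0.22 for Myc and -0.10 for Gcsam between DZ S and DZ G1, to -0.13 for Rev3l between DZ S and DZ G2/M and to -0.33 for Ccnb1 between DZ S and LZ S. With cells thinned to 2000 UMIs the first 3 counts were 1245, 746 and 375. Testing against a fold of 1.2 gave 1602, 869, 381 and 6. Leaving out 1 mouse gave 2066 to 2579, 1251 to 1702, 648 to 971 and 6 to 53. The count for the difference between zones was 120 with DESeq2 (809 genes with an adjusted p), 132 with no filter, 119 without immunoglobulin genes and 106 in a fit of only the groups compared, and the cause was not tested. Without the replicate block the counts were 2795, 1840, 999 and 28, so the pairing moved only the last by over 1.5 times. The share of dark zone cells in S phase was 27.2% with the phase called on thinned cells, and 31.7% to 33% with 1 mouse left out.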
